A study of Mus musculus with 15 samples.

Results

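A set of 10 genes of conventional dendritic cells was followed through every library: Zbtb46, Batf3, Id2, Flt3, Xcr1, Kmo, Dpp4, Btla, Cd24a and Sirpa. They are a list of named genes, and all 10 passed the filter on low counts, among the 20865 of 50554 listed genes that did so. RNA was sequenced in bulk from dendritic cells that were raised from mouse bone marrow, grown for 9 days with 20 ng/mL of granulocyte-macrophage colony-stimulating factor (GM-CSF). All mice carried a tamoxifen-inducible CreERT2 transgene and a floxed Mysm1 allele, and more than 12 weeks passed between tamoxifen and the marrow harvest, so that every group, controls included, had lost 1 Mysm1 allele. Mysm1 encodes a deubiquitinase of histone H2A. The Δ/+ libraries kept a wild-type Mysm1 allele and the Δ/DN libraries an allele for catalytically inactive MYSM1. For a further 18 h the cells were left unstimulated (US) or given 10 ng/mL of lipopolysaccharide (LPS), a bacterial product sensed through TLR4. Unstimulated libraries numbered 4 per genotype, and LPS libraries 3 for Δ/+ and 4 for Δ/DN. The sources used here name neither the promoter that drives CreERT2 nor whether replicates came from separate mice, so p-values measure the spread between these libraries. US and LPS libraries of 1 genotype and number carry 1 culture name in the labels, and were paired in refits with a replicate block. Ages of the mice are not named either.

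Conventional dendritic cells (cDCs) take up, process and present antigen to T cells, and in mice they fall into cDC1, which excel at cross-presentation to CD8 T cells, and cDC2, which mainly prime CD4 T cells. Their development depends on FLT3 ligand, and cDC1 need BATF3, IRF8 and ID2. Marrow cultures grown with GM-CSF hold cells with dendritic and with macrophage features, and few of them carry the cDC1 programme in full.

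The text describing the whole series and the fields of the single samples give the genotypes under opposite group letters. The sample fields were followed, and if the other text holds, every higher and lower between genotypes is the reverse. Libraries held 37256651 to 104041282 counted reads and 24749 to 26828 detected genes. Library names fall into set 2, which holds Δ/+ replicates 1 to 3 and Δ/DN replicates 1 and 2 of both treatments, and set 3, which holds Δ/+ replicate 4 (US alone) and Δ/DN replicates 3 and 4. The sources used here do not say what the sets stand for. Δ/DN replicates 3 and 4 stood apart in genes of the sex chromosomes. Xist, the RNA of the inactive X chromosome, lay at 1144 and 1166 CPM in Δ/DN replicate 4 without and with LPS, and Ddx3y, a Y-linked gene, had no reads there. In Δ/DN replicate 3 Ddx3y lay at 1.94 and 3.69 CPM, against 47.2 to 105 CPM in the other libraries with reads. Results without these libraries are therefore given beside calls, though not for every setting.

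The labelled cell type was checked against its markers. General dendritic cell genes were abundant in Δ/+ US libraries, where Cd74, the invariant chain of MHC class II, lay at 3366 ± 540.4 CPM (SD, n = 4) and Itgax, which encodes CD11c, at 936 ± 97.3 CPM. The 13 listed general genes summed to 6767 to 9856 CPM there, and 15 listed cDC1-associated genes outside the 10 to 886 to 1074 CPM. Of the genes that define cDC1, Xcr1 was near 0 in the same libraries, and Clec9a and Cadm1 were low. Xcr1 lay at 0.0314 ± 0.0214, Clec9a at 1.54 ± 0.336 and Cadm1 at 1.27 ± 0.191 CPM. The macrophage gene Csf1r lay at 764 ± 77.8 CPM. The 10 genes are therefore described by name, without assigning them to a cell population. In bulk RNA, fewer cells of a type and less RNA per cell cannot be told apart.

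Levels spanned several orders of magnitude. Levels are in CPM, the read count scaled to library size with TMM factors, and levels of different genes are compared per kilobase of annotated exon. Sirpa had the highest mean in Δ/+ US libraries at 177 CPM per kb, followed by Id2 at 129 and Cd24a at 68.8. Batf3 lay at 10.6 CPM per kb and Zbtb46 at 4.59. Kmo at 1.81, Btla at 1.60 and Dpp4 at 1.41 CPM per kb followed, and then Flt3 at 0.377 and Xcr1 at 0.00706. The ranges of Zbtb46 and Kmo, of Kmo and Btla, and of Btla and Dpp4 overlapped, and the other neighbours in that order did not. With LPS, Btla moved up to the fourth place in both genotypes, at 25.0 CPM per kb in Δ/+ and 28.2 in Δ/DN. Id2 and Sirpa then overlapped at the top, with 198 and 205 CPM per kb in Δ/+ LPS. In Δ/DN US libraries Cd24a, at 123 CPM per kb, came ahead of Id2, at 101, with overlapping ranges.

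**Figure D1:**
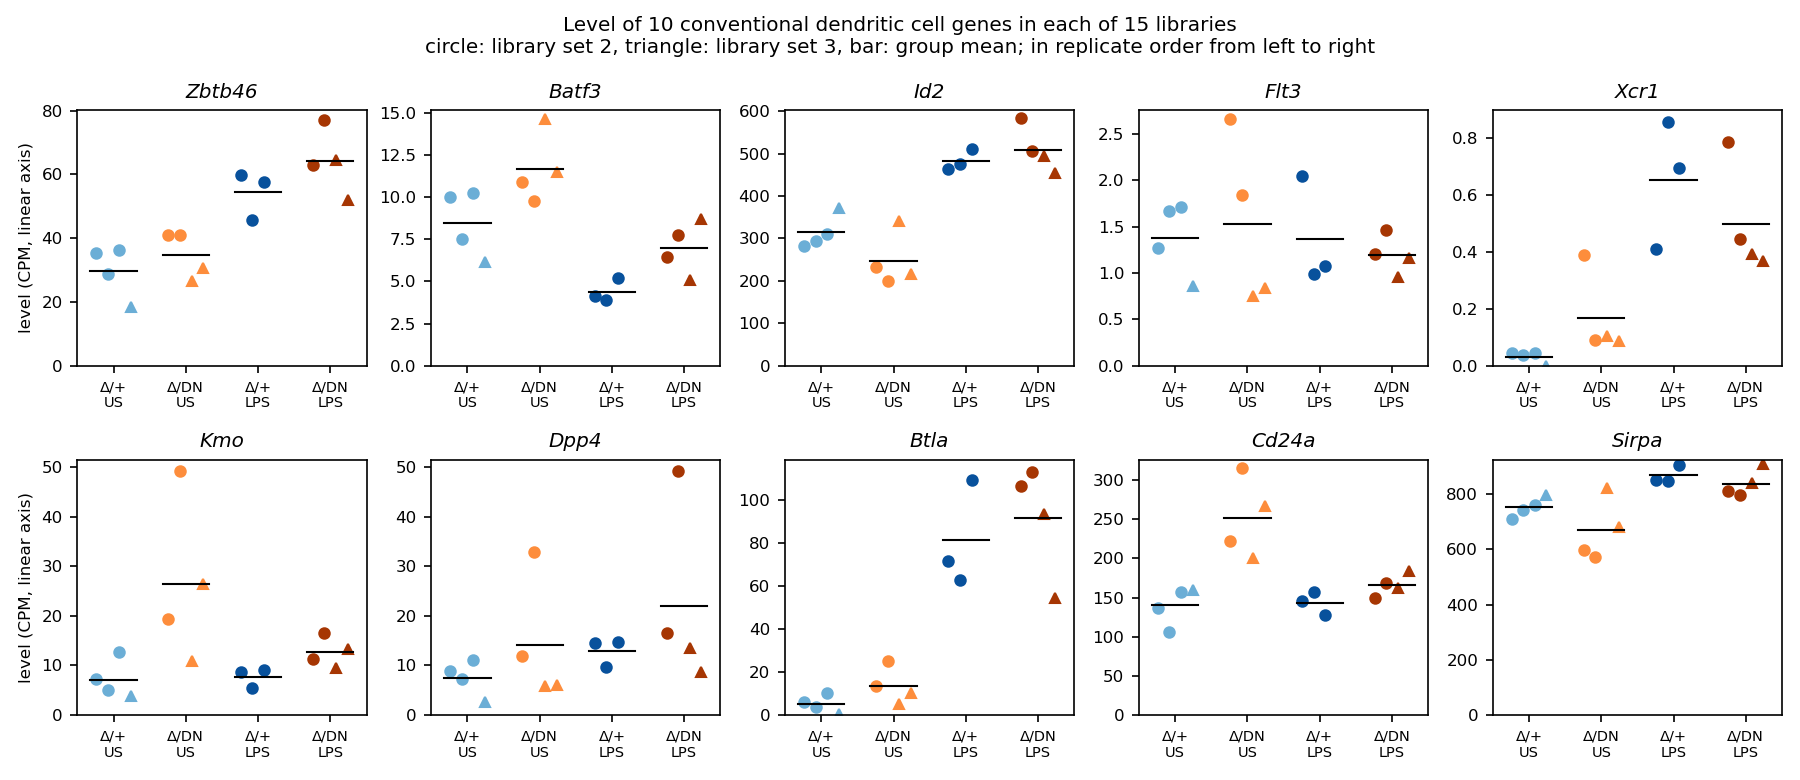
Level of each gene in CPM after TMM scaling, on a linear axis from 0, for each of the 15 libraries by genotype and LPS. Circles are library set 2, triangles library set 3, and bars the group means. Every LPS library lies above every US library for Zbtb46, Id2 and Btla, and US and LPS libraries do not overlap within a genotype for Batf3. Within a genotype 52.1% of all genes in Δ/+ and 40.9% in Δ/DN do not overlap.

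Sequences upstream of the genes are shown for 4 of them, since they moved with LPS in the same direction in both genotypes and their windows held a searched motif. Zbtb46, Xcr1 and Btla rose, and Batf3 fell. RefSeq windows of 300 bases, from 250 before to 50 after the start site, were found for 8 of the 10 genes in build GRCm38.p6. Sirpa and Cd24a were the others. The windows read 5′ to 3′ on the strand of the gene, with the matched motif in capitals. They lie at chr2:181424339-181424638 (minus strand) for Zbtb46, chr9:123861980-123862279 (minus strand) for Xcr1, chr16:45224087-45224386 (plus strand) for Btla and chr1:191098164-191098463 (plus strand) for Batf3.
Zbtb46: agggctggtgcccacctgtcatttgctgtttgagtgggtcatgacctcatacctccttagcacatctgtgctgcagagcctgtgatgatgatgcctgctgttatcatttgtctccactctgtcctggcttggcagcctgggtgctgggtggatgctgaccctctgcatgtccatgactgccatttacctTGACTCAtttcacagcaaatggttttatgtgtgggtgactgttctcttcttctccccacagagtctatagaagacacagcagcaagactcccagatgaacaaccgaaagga
Xcr1: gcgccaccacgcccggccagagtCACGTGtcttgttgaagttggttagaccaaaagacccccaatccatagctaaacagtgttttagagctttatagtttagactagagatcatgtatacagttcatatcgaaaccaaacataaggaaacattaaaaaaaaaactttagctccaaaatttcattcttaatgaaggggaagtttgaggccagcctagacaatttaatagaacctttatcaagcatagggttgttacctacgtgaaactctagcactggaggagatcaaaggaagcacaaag
Btla: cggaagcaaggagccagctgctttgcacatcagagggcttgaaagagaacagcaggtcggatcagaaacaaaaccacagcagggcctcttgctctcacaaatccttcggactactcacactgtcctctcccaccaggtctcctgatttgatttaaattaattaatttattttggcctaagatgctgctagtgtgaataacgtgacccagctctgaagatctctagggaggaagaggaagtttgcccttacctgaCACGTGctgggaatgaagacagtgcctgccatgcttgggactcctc
Batf3: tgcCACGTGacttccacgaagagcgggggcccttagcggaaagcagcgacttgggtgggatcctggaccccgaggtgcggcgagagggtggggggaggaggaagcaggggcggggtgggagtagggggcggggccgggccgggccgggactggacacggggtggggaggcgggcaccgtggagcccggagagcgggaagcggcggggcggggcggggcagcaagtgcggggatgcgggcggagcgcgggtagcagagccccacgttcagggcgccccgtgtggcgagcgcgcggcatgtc
The Zbtb46 window held the AP-1 motif TGACTCA with its first base at -61 from the start site. That motif was found on either strand in 5.2% of 32851 RefSeq windows. The palindromic E-box CACGTG began at -227 in Xcr1, 5 in Btla, -247 in Batf3 and 4 in Flt3, so 4 of 8 windows held it, against 7.2% of all windows. The interferon response element core, GAAA repeated after a gap of 2 bases and present in 3.4% of all windows, was found in 1 of the 8, Dpp4, at -52 on the opposite strand. The NF-kB motif, GGGA and TTCC around 2 free bases (1.5% of windows), and the PU.1-IRF composite, GGAA and GAAA around 2 free bases (2.7%), had no match in these 8 windows. A match describes letters in a window and not bound sites.

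The effect of LPS was tested within each genotype. In Δ/+ cells 4 of the 10 genes rose (Zbtb46, Id2, Xcr1 and Btla) and 1 fell (Batf3), where 47.7% of all genes tested were called, 22.4% higher and 25.3% lower. In Δ/DN cells 5 rose (the same 4 and Sirpa) and 3 fell (Batf3, Kmo and Cd24a), where 48.2% of all genes were called, 23.1% higher and 25.1% lower. The median log2 change over the 10 genes was 0.39 in Δ/+ and 0.53 in Δ/DN, and -0.08 and -0.09 over all genes. All adjusted p-values are from edgeR's quasi-likelihood test with Benjamini-Hochberg adjustment over all 20865 genes. TMM factors were 1.04 to 1.33 in US and 0.734 to 0.940 in LPS libraries, so LPS changes depend on scaling. Scaled to library totals alone, the median of all genes moved to -0.73 in Δ/+ and -0.67 in Δ/DN, and the members' changes moved with it.

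Zbtb46, a zinc finger transcription factor that marks cDCs and their committed precursors in mice, was measured at 35.2, 28.8, 36.2 and 18.5 CPM in Δ/+ US replicates 1 to 4 and at 41.1, 41.1, 26.5 and 30.7 CPM in Δ/DN US. With LPS it lay at 59.8, 45.6 and 57.7 CPM in Δ/+ and at 63.1, 77.1, 64.5 and 52.0 CPM in Δ/DN. Every LPS library was above every US library of either genotype, and the genotypes overlapped within each treatment. The share of all genes separated over both genotypes, as Id2 and Btla also were, was not counted. Within a genotype US and LPS libraries did not overlap for 52.1% of all genes in Δ/+ and 40.9% in Δ/DN. LPS raised Zbtb46 by 0.78 ± 0.14 (log2 ± SE, adjusted p = 0.000334) in Δ/+ and by 0.90 ± 0.13 (adjusted p = 4.78e-05) in Δ/DN. Scaled to library totals, which moved the median of all genes down as given above, the Zbtb46 change was 0.13 in Δ/+ and 0.32 in Δ/DN, and neither passed. Δ/DN minus Δ/+ was 0.37 ± 0.13 without LPS (adjusted p = 0.0911), against 0.50 ± 0.15 with LPS (adjusted p = 0.0589). The Zbtb46 difference with LPS passed without Δ/DN LPS replicate 1, at 0.63, and in 4 of 9 other settings, among them the replicate block, at 0.52 (adjusted p = 0.0406 by limma voom). The Zbtb46 gene overlaps 5 other listed genes, and the sources used here do not say whether counting used strand.

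Batf3, a basic leucine zipper factor that pairs with JUN proteins and is needed for cDC1 development, was the one gene to fall with LPS in both genotypes. It lay at 10.0, 7.53, 10.2 and 6.17 CPM in Δ/+ US and at 4.13, 3.89 and 5.18 CPM in Δ/+ LPS libraries. In Δ/DN libraries Batf3 lay at 10.9, 9.76, 14.6 and 11.5 CPM without and at 6.47, 7.78, 5.08 and 8.70 CPM with LPS. US and LPS libraries did not overlap in either genotype. Non-overlap was common here, at 52.1% of all genes in Δ/+ and 40.9% in Δ/DN. The change was -0.95 ± 0.23 in Δ/+ (adjusted p = 0.0026), against -0.74 ± 0.20 in Δ/DN (adjusted p = 0.00689). In Δ/DN the Batf3 fall did not pass within library set 2, at -0.50, without both Δ/DN 3 libraries, at -0.46, or without Δ/DN 3 and 4, at -0.52. Between genotypes Batf3 differed by 0.48 ± 0.21 without (adjusted p = 0.164), against 0.69 ± 0.24 with LPS (adjusted p = 0.0822). With LPS the Batf3 difference passed without Δ/DN LPS replicate 3, at 0.77, and in 5 of 9 other settings, among them library set 2 alone, at 0.70, and DESeq2, at 0.69.

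Id2 encodes an inhibitor that binds E proteins and keeps them off DNA. Its level was 282, 293, 310.4 and 371 CPM in Δ/+ US and 232, 199, 342 and 215 CPM in Δ/DN US libraries. With LPS Id2 reached 463, 475 and 511 CPM in Δ/+ and 583, 506, 494 and 454 CPM in Δ/DN. LPS libraries lay above all US libraries, and Δ/DN US replicate 3 was higher than the other Δ/DN US replicates. The rise was 0.66 ± 0.16 in Δ/+ (adjusted p = 0.00299), against 1.06 ± 0.15 in Δ/DN (adjusted p = 3.27e-05). Scaled to library totals, the Id2 change was 0.01 in Δ/+ and did not pass, and 0.49 in Δ/DN, which did. Between genotypes without LPS, Id2 differed by -0.39 ± 0.15 (adjusted p = 0.112). Without Δ/DN US replicate 3, Id2 was lower in Δ/DN by a log2 difference of -0.56 (adjusted p = 0.00644), and within library set 2 it was lower by -0.47 (adjusted p = 0.0286).

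Flt3, the receptor tyrosine kinase for FLT3 ligand, was low in all groups. It lay at 1.27, 1.67, 1.71 and 0.861 CPM in Δ/+ US and at 2.66, 1.84, 0.754 and 0.836 CPM in Δ/DN US libraries. With LPS Flt3 was at 2.04, 0.983 and 1.07 CPM in Δ/+ and at 1.20, 1.46, 0.955 and 1.16 CPM in Δ/DN. All groups overlapped, and no comparison of Flt3 passed in any refit. Its log2 differences were 0.26 ± 0.29 and 0.27 ± 0.34 between genotypes without and with LPS, and -0.20 ± 0.32 and -0.19 ± 0.29 with LPS in Δ/+ and Δ/DN. The Flt3 gene overlaps 1 other listed gene.

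Xcr1, the chemokine receptor for XCL1 and a defining marker of cDC1, was near the limit of counting in Δ/+ US libraries. There it had 2, 3, 5 and 0 reads in replicates 1 to 4, or 0.0436, 0.0358, 0.0463 and 0 CPM, where 3 reads amount to 0.0278 to 0.0655 CPM. The library with no Xcr1 reads allows up to 0.0349 CPM. In Δ/DN US libraries Xcr1 had 32, 8, 8 and 9 reads, or 0.388, 0.0900, 0.104 and 0.0864 CPM. The genotypes did not overlap, as was so for 12.5% of all genes, and Δ/DN US replicate 1 stood well above the others. With LPS Xcr1 lay at 0.409, 0.854 and 0.694 CPM in Δ/+ and at 0.784, 0.444, 0.393 and 0.366 CPM in Δ/DN. The Δ/+ LPS libraries were all above the Δ/+ US libraries, while in Δ/DN the US replicate 1 lay inside the LPS range. In Δ/+ 52.1% of all genes did not overlap between treatments. Reads are not molecules where no molecular identifiers were used, so these limits cover counting error only. Xcr1 rose with LPS by 4.15 ± 0.61 in Δ/+ (adjusted p = 4.87e-05), against 1.67 ± 0.49 in Δ/DN (adjusted p = 0.0103). In Δ/DN the Xcr1 rise did not pass within library set 2, at 1.39, without Δ/DN 3 and 4, at 1.37, or when scaled to library totals, at 1.10. Even with LPS Xcr1 stayed under 1 CPM. It passed the filter on low counts through its LPS libraries, since among US libraries Δ/DN replicate 1 alone had 10 or more reads. Its entry into the tests was thus not independent of its level with LPS. With no filter on low counts the Xcr1 rise still passed in both genotypes.

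Btla encodes an inhibitory receptor of the immunoglobulin family that binds TNFRSF14 (HVEM) and in mice is found on cDC1 as well as lymphocytes. It lay at 6.22, 3.84, 10.1 and 0.698 CPM in Δ/+ US and at 13.7, 25.1, 5.10 and 10.3 CPM in Δ/DN US libraries. LPS brought Btla to 71.7, 63.1 and 109 CPM in Δ/+ and to 106, 113, 93.4 and 54.3 CPM in Δ/DN. The LPS libraries were above all US libraries. The rise was 3.86 ± 0.53 in Δ/+ (adjusted p = 6.93e-05), against 2.93 ± 0.49 in Δ/DN (adjusted p = 0.000341), and no Btla value of a US library reached those of LPS libraries. Btla passed in every refit of both LPS comparisons, from 3.21 to 4.37 in Δ/+ and from 2.32 to 3.19 in Δ/DN. Over the 15 libraries Btla had the widest range of the 10 genes, at 7.29 log2 units, and Sirpa the narrowest, at 0.67.

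**Figure D2:**
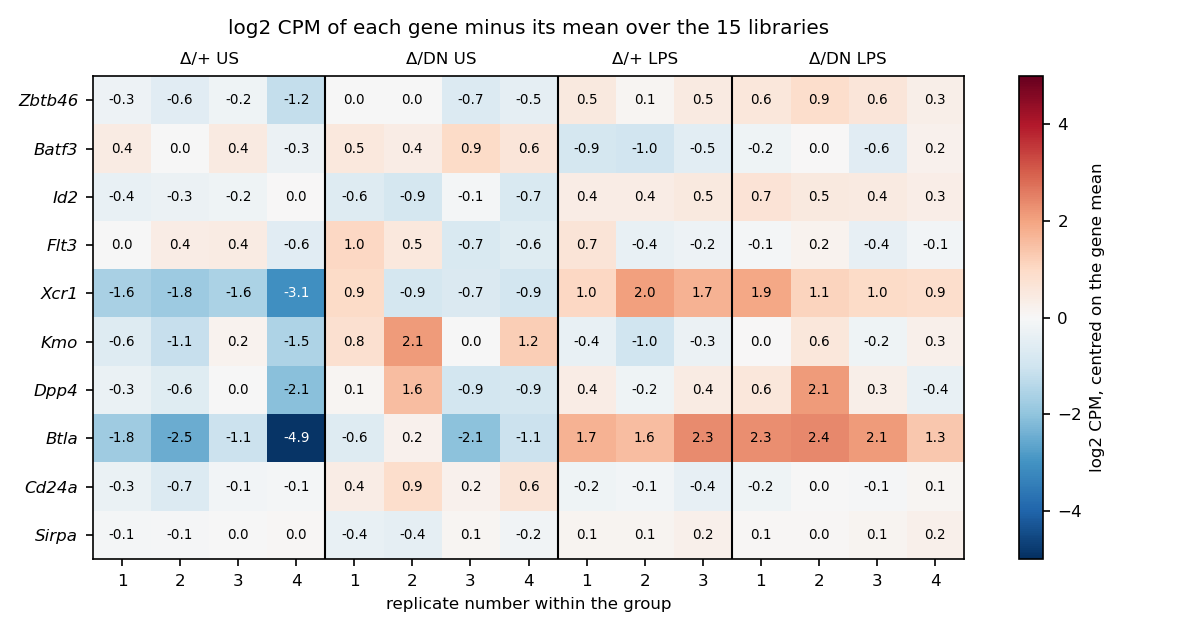
Log2 CPM of each gene minus its mean over the 15 libraries, by group and replicate number, with red above and blue below the mean. Btla spans 7.29 and Sirpa 0.67 log2 units, and Δ/+ US replicate 4 holds the lowest value of 7 of the 10 genes in its group.

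Kmo, kynurenine 3-monooxygenase of the tryptophan degradation pathway, and Cd24a, a heavily glycosylated membrane-anchored protein used to tell mouse cDC1 from cDC2, were called lower with LPS in Δ/DN and did not pass in Δ/+. Kmo lay at 7.18, 5.01, 12.7 and 3.78 CPM in Δ/+ US and at 8.60, 5.50 and 9.03 CPM in Δ/+ LPS libraries, which overlapped. In Δ/DN libraries Kmo was at 19.4, 49.3, 10.9 and 26.3 CPM without and at 11.3, 16.5, 9.45 and 13.3 CPM with LPS. The LPS effect on Kmo was -0.02 ± 0.42 in Δ/+ (adjusted p = 0.98), against -0.996 ± 0.38 in Δ/DN (adjusted p = 0.0481). The Kmo fall in Δ/DN passed in 3 of 8 refits that left out a Δ/DN library. It did not pass without US replicate 2, at -0.66, without US replicate 4, at -0.75, or without LPS replicates 1, 2 or 3, at -0.82, -1.001 and -0.97. Leaving out Δ/+ US replicates 1 or 4 or any Δ/+ LPS replicate also ended it, at -0.999 to -0.98. Over the 10 settings that did not leave out a single library, the Kmo fall in Δ/DN passed in 5. RLE scaling, at -0.95, and library set 2 alone, at -1.28, were among those without a Kmo call.

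Cd24a was measured at 137, 106, 157 and 160.2 CPM in Δ/+ US and at 145, 157 and 128 CPM in Δ/+ LPS libraries. In Δ/DN it lay at 223, 316, 201 and 267 CPM without and at 149, 169, 162 and 184 CPM with LPS. The Δ/+ treatments overlapped, and the Δ/DN US libraries were all above the Δ/DN LPS libraries. In Δ/DN 40.9% of all genes did not overlap between treatments. The LPS effect on Cd24a was 0.05 ± 0.17 in Δ/+ (adjusted p = 0.844), against -0.60 ± 0.15 in Δ/DN (adjusted p = 0.00413). The fall of Cd24a in Δ/DN passed in all 8 refits that left out a Δ/DN library. Scaled to library totals, the Δ/+ change of Cd24a was a called -0.60, where the median of all genes was -0.73.

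Sirpa, an inhibitory receptor for CD47 found on cDC2, monocytes and macrophages, was the most even of the 10 genes. It lay at 711, 742, 760.3 and 796 CPM in Δ/+ US and at 598, 571, 824 and 682 CPM in Δ/DN US libraries. With LPS Sirpa was at 852, 849 and 906 CPM in Δ/+ and at 811, 797, 839 and 908 CPM in Δ/DN. The Δ/+ treatments did not overlap, as was so for 52.1% of all genes, and Δ/DN US replicate 3 lay inside the Δ/DN LPS range. The change was 0.26 ± 0.10 in Δ/+ (adjusted p = 0.0501), against 0.34 ± 0.09 in Δ/DN (adjusted p = 0.00838). In Δ/+ the Sirpa change passed without Δ/DN US replicate 3, at 0.25, without Δ/DN LPS replicate 3, at 0.27, and within library set 2, at 0.25. With the replicate block as a random term Sirpa passed in Δ/+ too, at 0.25 (adjusted p = 0.0195 by limma voom). As a fixed term in edgeR the block gave no Sirpa call in Δ/+. Scaled to library totals the sign of Sirpa turned, with called changes of -0.40 in Δ/+ and -0.23 in Δ/DN, against medians over all genes of -0.73 and -0.67. Sirpa lay above the median of all genes under both scalings. A change of scaling moves a gene and the median nearly alike, so this is not separate evidence.

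Dpp4, the exopeptidase CD26, which trims dipeptides from chemokines and is high on mouse cDC1, did not pass with LPS in the unpaired edgeR model of all 15 libraries. It lay at 8.84, 7.33, 11.04 and 2.62 CPM in Δ/+ US and at 14.5, 9.72 and 14.7 CPM in Δ/+ LPS libraries. In Δ/DN Dpp4 lay at 11.8, 32.9, 5.84 and 6.06 CPM without and at 16.6, 49.2, 13.6 and 8.59 CPM with LPS. Groups overlapped, and Δ/DN replicate 2 was the highest library in both treatments. Dpp4 was higher with LPS in 7 of 7 pairs of equal number, in CPM with TMM factors. The share of all genes that moved in the same direction in every pair was not counted. Scaled to library totals the fitted Dpp4 change in Δ/+ was -0.13, not called. The LPS effect was 0.52 ± 0.38 in Δ/+ (adjusted p = 0.288), against 0.72 ± 0.35 in Δ/DN (adjusted p = 0.105). With the replicate block as a fixed term in edgeR, Dpp4 rose by 0.51 in Δ/+ (adjusted p = 0.00838), against 0.69 in Δ/DN (adjusted p = 0.000285). As a random term in limma voom the block gave no call, with adjusted p-values of 0.249 and 0.0623. In Δ/DN the unpaired Dpp4 change passed without US replicate 2, at 1.10, without LPS replicate 1, at 0.99, and by DESeq2, at 0.77 (adjusted p = 0.048).

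The difference between the LPS effects of the genotypes was tested directly. None of the 10 genes passed by edgeR's quasi-likelihood test, where 1 of 20865 genes (0.00479%) did, and none passed by DESeq2. With the replicate block none of the 10 passed either, where 156 genes did as a fixed term and 2 as a random term. At an unadjusted p under 0.05 there were 2 genes, Xcr1 and Cd24a. The LPS effect on Xcr1 differed by -2.48 ± 0.79, being smaller in Δ/DN (adjusted p = 0.339), and that of Cd24a differed by -0.65 ± 0.23 (adjusted p = 0.384). These comparisons use the same US libraries as the genotype comparison without LPS, so they are not separate evidence. Calls of Kmo, Cd24a or Sirpa in 1 genotype are thus not shown to differ between genotypes.

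**Figure D3:**
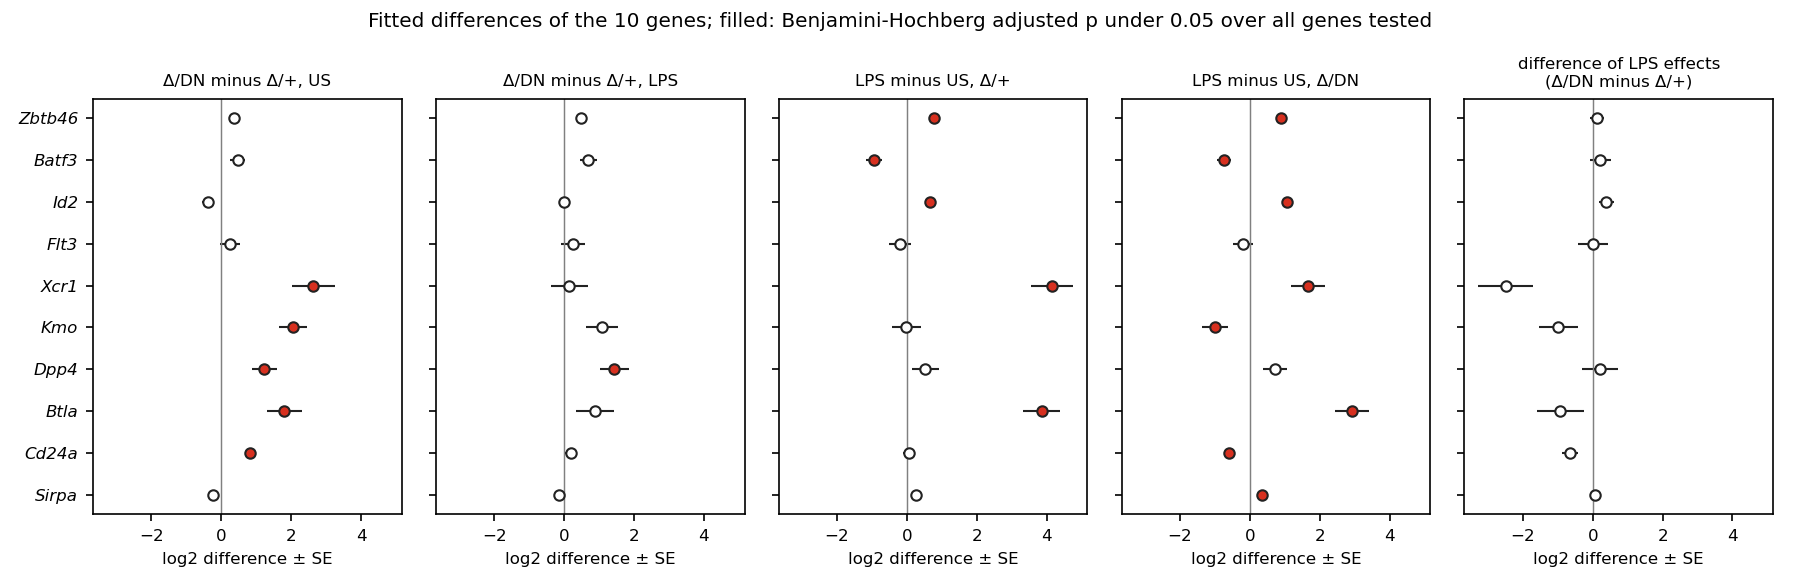
Fitted log2 differences ± SE of the 10 genes in the 5 comparisons, filled where the adjusted p was under 0.05. Without LPS 5 genes are higher in Δ/DN, with LPS 1, and no difference of LPS effects is filled.

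The genotypes were then compared without LPS, which asked whether resting cells with inactive MYSM1 carried different levels of these genes. Of the 10 genes 5 were higher in libraries labelled Δ/DN and 0 lower, where 10.5% of all genes were called, 5.01% higher and 5.45% lower. The 5 were Xcr1, Kmo, Dpp4, Btla and Cd24a. Without Δ/+ US replicate 4 the calls went from 5 to 1 of the 10 genes, Cd24a, and from 2184 to 174 of all genes. The median log2 difference was 0.66 over the 10 genes and 0.01 over all genes. Cd24a and Xcr1 did not overlap between genotypes, as was so for 12.5% of all genes. Kmo, Dpp4 and Btla did overlap. With no term for the library set, Kmo at 1.88 and Cd24a at 0.84 still passed, while Xcr1 at 2.37, Dpp4 at 0.93 and Btla at 1.38 did not. With no filter on low counts Dpp4 and Btla did not pass. With the replicate block Dpp4 did not pass, at 1.11 (adjusted p = 0.07 by limma voom), and the other 4 did. Over the 9 settings that did not leave out a single library, Kmo and Cd24a passed in 9, Xcr1 in 6, Btla in 5 and Dpp4 in 4. Beside the count of 0 lower, 2 genes (Id2 and Sirpa) were lower at an unadjusted p under 0.05, and 1 (Sirpa) was lower by DESeq2.

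Cd24a was higher in Δ/DN by 0.84 ± 0.15 (adjusted p = 0.00834), from 140.0 ± 24.7 to 251 ± 50.9 CPM (SD, n = 4 each). Its difference passed in all 8 refits that left out a US library, at 0.65 to 0.92, and within library set 2, at 1.00 (adjusted p = 0.0159). Kmo was higher by 2.06 ± 0.40 (adjusted p = 0.0125), from 7.16 ± 3.94 to 26.5 ± 16.4 CPM. The Kmo difference passed within library set 2, at 2.03 (adjusted p = 0.0493), and did not without Δ/+ US replicate 4, at 1.89 (adjusted p = 0.0787), or Δ/DN US replicate 2, at 1.63 (adjusted p = 0.0658). Set 3 alone holds 1 Δ/+ US library and no Δ/+ LPS library, so it gives no test.

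Xcr1 was higher by 2.64 ± 0.61 (adjusted p = 0.0183), a difference that rests on the few reads given above. It did not pass within library set 2, at 2.43 (adjusted p = 0.0607), nor without Δ/+ US replicate 2, at 2.63, Δ/+ US replicate 4, at 2.30, or Δ/DN US replicate 1, at 1.92. Btla was higher by 1.81 ± 0.50 (adjusted p = 0.0409). The Btla difference passed in 3 of 8 refits and not within library set 2, at 1.50 (adjusted p = 0.0803). It was lost without Δ/+ US replicates 1, 2 or 4, at 1.85, 1.66 and 1.33, and without Δ/DN US replicates 2 or 4, at 1.56 and 1.65. Leaving out any Δ/+ LPS library also ended the Btla call, with the difference at 1.81. Dpp4 was higher by 1.24 ± 0.36 (adjusted p = 0.0459) and passed in 1 of 8 refits, the one without Δ/DN US replicate 1, at 1.48. Without Δ/DN US replicate 2, the highest library, the Dpp4 difference was 0.79, and the other refits lay between 1.14 and 1.34. Leaving out any Δ/+ LPS library or Δ/DN LPS replicate 4 ended the Dpp4 call as well, at adjusted p-values of 0.0518 to 0.0653. Within library set 2 the Dpp4 difference was 1.29 (adjusted p = 0.203).

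**Figure D4:**
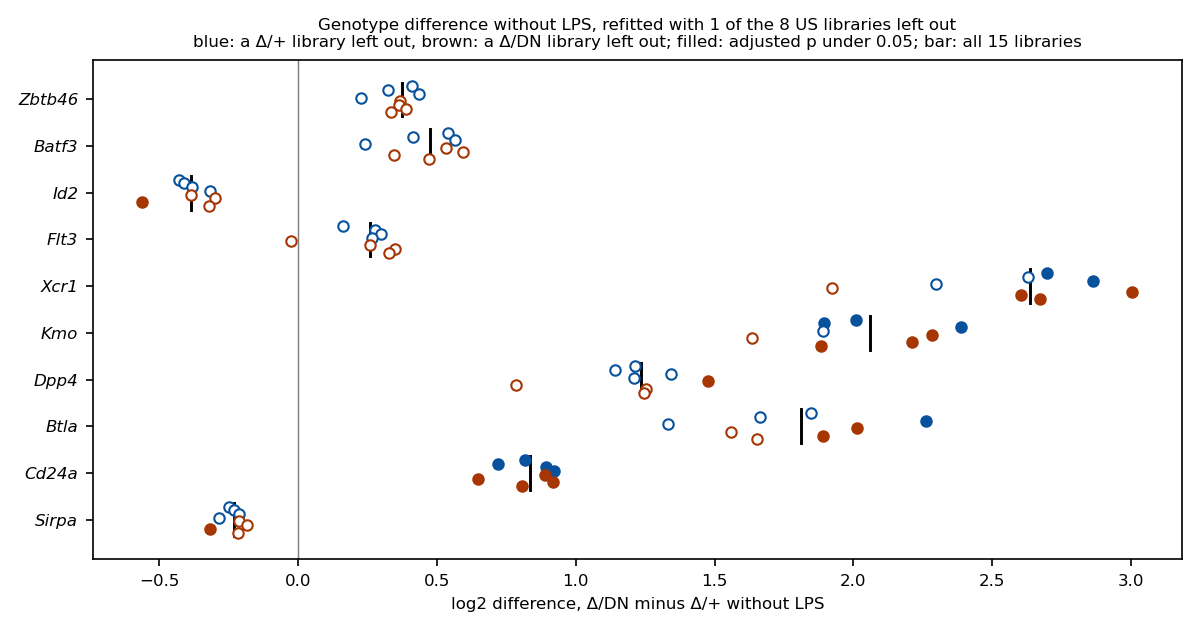
Log2 difference of Δ/DN from Δ/+ without LPS for each gene, refitted with 1 of the 8 US libraries left out, filled where the adjusted p was under 0.05. Black bars are the values from all 15 libraries. Cd24a is filled in all 8 refits, Kmo in 6, Xcr1 in 5, Btla in 3 and Dpp4 in 1.

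Sirpa and Id2 lay lower in most Δ/DN US libraries without passing. Sirpa differed by -0.23 ± 0.10 (adjusted p = 0.144). Without Δ/DN US replicate 3 Sirpa was lower by a called -0.32 (adjusted p = 0.019), and within library set 2 by -0.35 (adjusted p = 0.0479). Leaving out both Δ/DN 3 libraries gave 7 called genes, 5 higher and 2 lower, the latter being Id2 and Sirpa.

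With LPS, Dpp4 alone passed between genotypes, at 1.44 ± 0.41 (adjusted p = 0.0494), where 8.6% of all genes were called, 5.37% higher and 3.23% lower. Dpp4 had a mean of 13.0 ± 2.80 CPM (n = 3) in Δ/+ LPS and 22.0 ± 18.4 CPM (n = 4) in Δ/DN LPS libraries. Library set 3 holds no Δ/+ LPS library, so the set term in these fits rested on the other groups. With no set term Dpp4 did not pass. Over the 9 settings that did not leave out a single library, the Dpp4 difference ran from 0.76 to 1.60 and passed in 2. Dpp4 passed in 1 of 7 refits that left out an LPS library, the one without Δ/DN LPS replicate 1, at 1.79. Without Δ/DN LPS replicate 2 the Dpp4 difference was 1.05 (adjusted p = 0.223), and without any other LPS library 1.27 to 1.53. Leaving out a US library ended the Dpp4 call too, at 1.29 to 1.44, except Δ/DN US replicate 1. Within library set 2 it was 1.35 (adjusted p = 0.156), and with the replicate block 1.24 (adjusted p = 0.0634 by limma voom), where Zbtb46 was the 1 gene that passed. Kmo did not overlap between genotypes, as was so for 24.6% of all genes, and differed by 1.08 ± 0.46 (adjusted p = 0.163). The remaining genes differed by -0.16 to 0.89. For Xcr1 the value was 0.15 ± 0.53, for Btla 0.89 ± 0.56 and for Cd24a 0.19 ± 0.18. Over the same 9 settings the Btla difference ran from 0.18 to 1.04 and that of Zbtb46 from 0.24 to 0.65.

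Markers of other cells moved with genotype and are given beside these differences. Summed neutrophil markers, with 10 of 10 genes tested, ran from 128 to 192 CPM in Δ/+ US and from 170.4 to 965 CPM in Δ/DN US libraries, with the highest value in replicate 4. In LPS libraries they ran from 111 to 156 CPM in Δ/+ and from 167 to 1058 CPM in Δ/DN. Of these 10 markers 1 passed without LPS, Csf3r at 1.21, and it passed with LPS at 1.02. Summed progenitor markers lay at 66.3 to 86.5 CPM in Δ/+ US and 89.2 to 118 CPM in Δ/DN US libraries, and 3 of 8 were called higher, Cd34 by 3.30, Myb by 2.04 and Cd48 by 0.47. Monocyte markers ran from 2976 to 4394 CPM in Δ/+ US and from 1906 to 2761 CPM in Δ/DN US libraries, with Fn1 and Nr4a1 called lower among 8. Macrophage markers overlapped, at 1990 to 2307 and 1772 to 2429 CPM, with 3 of 11 called higher (C1qa, C1qb and C1qc) and 2 lower (Cd14 and Cd68). Erythroid markers summed to 0.0716 to 0.601 CPM in Δ/+ US and 0.995 to 1.83 CPM in Δ/DN US libraries, with 2 of 4 tested called higher (Hbb-bs and Hbb-bt). B cell markers, among which Igll1 was at 0 in all 15 libraries, summed to 0.741 to 3.99 CPM over all libraries, and 1 of 7 tested, Blk, was lower without LPS at -2.07. T and NK cell markers ran from 155 to 304 CPM in Δ/+ US and from 87.0 to 153 CPM in Δ/DN US libraries. These sums did not overlap, as was so for 12.5% of all single genes. Of 4 tested 1 was lower in Δ/DN, Il7r, which encodes the interleukin-7 receptor, at -0.89 ± 0.23. Mast cell and basophil markers ran from 23.5 to 27.9 CPM in Δ/+ US and from 27.9 to 61.2 CPM in Δ/DN US libraries, with a median log2 difference of 1.31 over 9 genes and 1 called higher, Cd200r3 at 0.74. With LPS 2 of the 9 were higher in Δ/DN, Gata2 at 2.81 and Cd200r3 at 1.10. Among the T and NK cell markers Trac, the constant region of the T cell receptor alpha chain, was at 0 in all 15 libraries. Ncr1 was at 0 in 10 of the 15, Cd3g in 9 and Cd3e in 7. The summed T and NK cell markers are therefore not a measure of T or NK cells. Cd24a is also known from neutrophils, erythroid cells and B cell progenitors, Dpp4 and Btla from lymphocytes. The part of these cells in the differences was not tested.

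Related genes were set beside the members by role. Among 13 other transcription factors of cDC development, 1 was higher in Δ/DN without LPS, Bcl11a at 1.23 ± 0.36, and 1 lower, Zeb2 at -0.67 ± 0.13, with a median of -0.03. With LPS 1 was higher in Δ/DN, Runx3 at 0.97 ± 0.26, and 2 were lower, Nfil3, a factor needed for cDC1 in mice, at -1.03 ± 0.20 and Bcl11a at -1.49 ± 0.37, with a median of 0.06. LPS raised 9 of the 13 in Δ/+ and 7 in Δ/DN. Irf8, the partner of BATF3 in cDC1, rose by 1.78 ± 0.24 and 2.09 ± 0.23, and Relb by 0.89 ± 0.12 and 1.11 ± 0.11. Klf4, a factor for a subset of cDC2, was the 1 that fell in each, by a log2 change of -1.19 and -1.51. So Irf8 rose where Batf3 fell.

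Among 15 other cDC1-associated genes, 2 were higher in Δ/DN without LPS, namely Itgae, which encodes CD103, at 1.77 ± 0.44, and Wdfy4, needed for cross-presentation by mouse cDC1, at 0.54 ± 0.15. Their median was 0.09. Clec9a, the receptor for actin filaments of dead cells and one of the genes used to check the label, differed by 0.80 ± 0.33 (adjusted p = 0.136). With LPS 3 rose in each genotype, Tlr3 by 4.53 and 3.14, Ly75, which encodes DEC-205, by 2.02 and 2.36, and Irf8. In Δ/+ 2 of the 15 fell, Rab7b by a log2 change of -3.28 and Tlr12 by -1.50, and the median was -0.04. In Δ/DN 5 fell, Rab7b by -2.53, Tlr12 by -1.55, Tlr11 by -1.34, Naaa by -0.73 and Wdfy4 by -0.38, and the median was -0.14. The shares of all genes that rose and fell are given above. Of 13 cDC2-associated genes Clec12a was higher in Δ/DN without LPS, at 0.60 ± 0.11. With LPS Clec10a, a lectin of cDC2 and macrophages, was lower in Δ/DN by -1.04 ± 0.21, and Ltb higher by 2.31 ± 0.62.

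Among 13 general dendritic cell genes 2 were higher in Δ/DN without LPS, Ciita, the master regulator of MHC class II genes, at 1.36 ± 0.29 and the chemokine Ccl17 at 0.72 ± 0.21. LPS raised 11 of the 13 in Δ/+ and 12 in Δ/DN, with medians of 1.43 and 1.46. The chemokine Ccl22 rose by 2.83 and 2.98, the costimulatory ligand Cd86 by 1.89 and 1.90 and Cd83 by 2.07 and 2.04.

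Among E proteins and other ID proteins, the partners and relatives of ID2, 5 of 6 genes were tested. LPS raised Tcf4, the E protein that drives plasmacytoid dendritic cells, by 2.99 ± 0.21 in Δ/+ and 2.68 ± 0.20 in Δ/DN. The other 4 fell in both genotypes, Tcf3 by a log2 change of -1.10 and -0.82, Tcf12 by -0.87 and -0.34, Id1 by -2.15 and -1.48 and Id3 by -1.80 and -2.01. Id2 and Tcf4 thus rose and Id1 and Id3 fell. Without LPS Tcf12 at -0.36 and Id1 at -0.92 were lower in Δ/DN. Of 7 BATF and JUN family genes and IRF partners of BATF3, LPS raised 5 and lowered Jun in each genotype. Batf rose by 3.02 and 2.10 and Batf2 by 3.54 and 2.89, against the fall of Batf3.

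Among 9 genes of FLT3 and GM-CSF signalling, Flt3l, which encodes FLT3 ligand, was higher in Δ/DN without LPS by 1.02 ± 0.29 (adjusted p = 0.0401), from 1.55 ± 0.342 to 3.01 ± 1.19 CPM. Csf2rb2, a mouse relative of the beta chain gene Csf2rb, was lower by -0.39 ± 0.11. The GM-CSF receptor genes Csf2ra, at 0.01, and Csf2rb, at -0.20, were not called. LPS raised Stat3, Stat5a and Stat5b and lowered Csf1r in both genotypes. Of 11 other kynurenine pathway genes 7 were tested, and Kynu (1.15 ± 0.29) and Haao (0.81 ± 0.20), enzymes of the same pathway, were higher in Δ/DN without LPS, as Kmo was. LPS raised Kynu by 2.41 in Δ/+ and 2.00 in Δ/DN. Tdo2, the tryptophan dioxygenase of liver, had no reads in any library.

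Of 8 DPP4 relatives and partners, 2 were higher in Δ/DN with LPS, beside Dpp4. Dpp7 at 0.80 ± 0.15 and Ada, the adenosine deaminase that binds DPP4 in humans, at 1.80 ± 0.41 were those genes. Fap, a close relative, rose with LPS by 3.55 in each genotype. Of 10 ligands and signal partners of XCR1, BTLA, SIRPA and CD24, 8 were tested and 4 were higher in Δ/DN without LPS. They were Tnfrsf14, the BTLA ligand, at 0.99 ± 0.18, Ptpn6, which encodes the phosphatase SHP-1, at 0.79 ± 0.23, and the CD24 binders Siglecg at 0.88 ± 0.25 and Selp at 1.80 ± 0.42. Xcl1, the ligand of XCR1, had reads in 1 of 15 libraries. LPS raised Tnfrsf14 by 1.54 and 0.76, Cd47, the ligand of SIRPA, by 1.32 and 1.14, and Ptpn11 by 0.52 and 0.68, and lowered Tnfsf14. Receptor and ligand genes of the BTLA pair thus both rose with LPS.

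**Figure D5:**
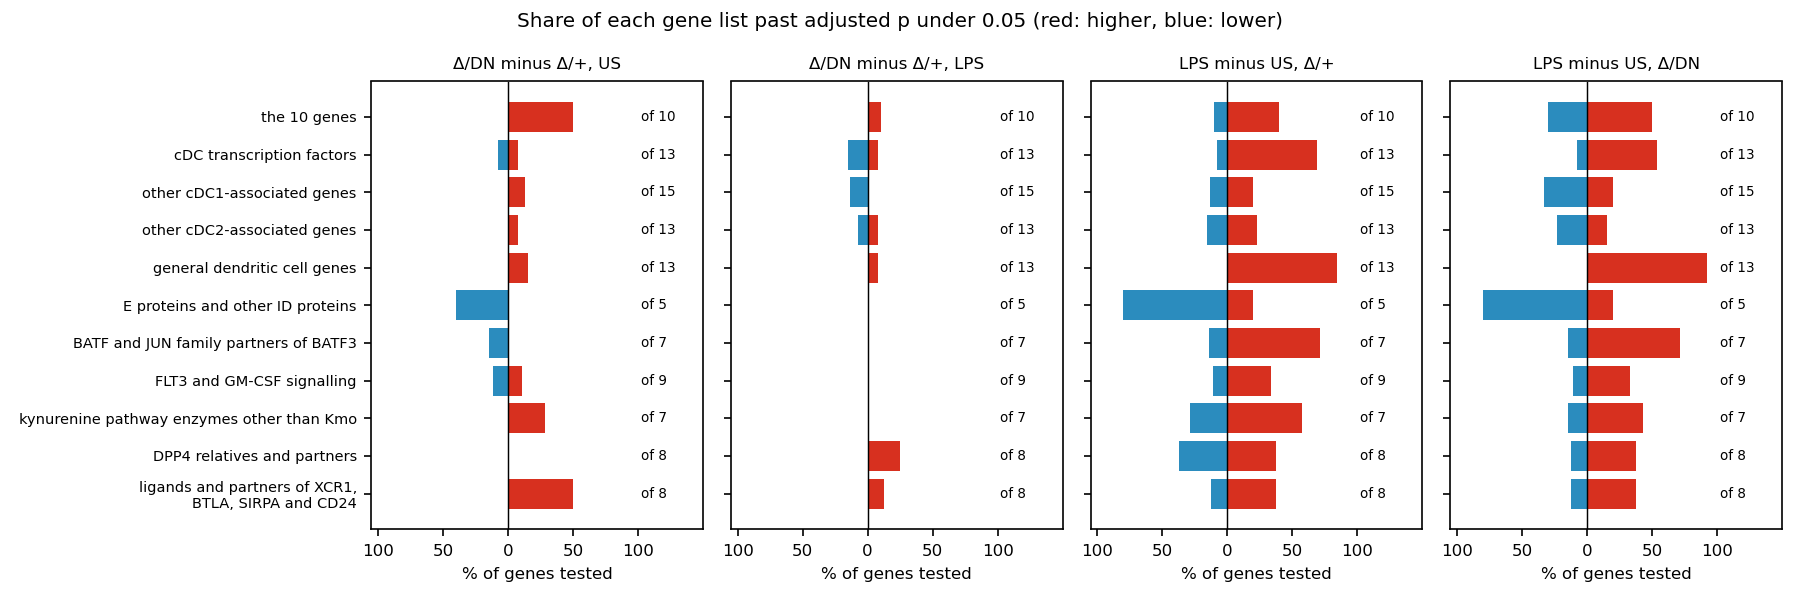
Share of the tested genes of each list that were higher (red) or lower (blue) at adjusted p under 0.05 in 4 comparisons, with the number tested at the right. Among the 10 genes 5 are higher in Δ/DN without LPS, and general dendritic cell genes are called higher with LPS for 11 and 12 of 13.

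Genes with the most similar profile were found for 4 members as the smallest root-mean-square difference of centred log2 CPM over the 15 libraries. For Zbtb46 they were Gm5171 (0.149), Cst3, a cysteine protease inhibitor abundant in dendritic cells (0.179), and Polr3c (0.181), where the spread of Zbtb46 itself was 0.550. For Kmo, with its own spread of 0.918, they were Lpcat4 (0.355), Rad54l (0.371) and Gm33370 (0.396). For Flt3, with 0.501, the nearest were Gpr21 (0.288), Gm16089 (0.297) and Gm4521 (0.311). For Sirpa, with 0.192, they were Hnrnpab (0.0627), Snrpb (0.0690) and Cct7 (0.0733). Within the 10 genes Xcr1 and Btla were each other's nearest, at 0.969, where their own spreads were 1.54 and 2.14. Id2 and Sirpa were the closest pair, at 0.331, with own spreads of 0.485 and 0.192. Genes of little spread lie close by this measure, so that pair is not shown to share a profile.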

How the data were processed

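RNA was measured in 15 libraries from total RNA depleted of ribosomal RNA, and the authors deposited raw read counts per gene for each library. The submitters' processing notes name HISAT2 2.2.1, featureCounts, Trimmomatic 0.33, edgeR, bedtools and FastQC, and the builds mm39 and GRCm39. The sources used here do not say whether counting used strand. Groups came from the sample labels. The counts were fitted in R 4.3.3 with edgeR 4.0.16 (TMM, filterByExpr with a minimum count of 10, robust quasi-likelihood F test) over all 15 libraries, with 4 groups and the library set as a term. P-values were adjusted by Benjamini-Hochberg over 20865 genes and called under 0.05. The main model did not pair libraries. US and LPS libraries of 1 genotype and number carry the same culture name in the labels' description field, which was read as 1 culture split for stimulation, and their deviations from the group means correlated over 0.1 in 6 of 7 pairs (0.0643 for Δ/+ number 2, up to 0.428). Profiles used log2 CPM with a prior count of 2. The deposited gene length departs from annotated exon length in both directions. It is 85193 against 4241 bases for Sirpa, and 1272 against 2438 for Id2. Levels per kilobase therefore used exon lengths of the annotation, a change from the planned length. Alternatives were RLE scaling, the DESeq2 1.42.0 Wald test, no filter, no set term, library set 2 alone, Δ/DN 3 or 3 and 4 left out, the replicate number as a block (limma 3.58.1 or edgeR), each library left out, and, added after the data were seen, library totals. The edgeR step was tested on simulated counts. Genes named were all 10 members and, from each related list, at most 4 with the smallest p in a comparison plus those counted singly. The members and lists were chosen with earlier results of these data known. A depth of 37256651 to 104041282 reads per library limits the precision of genes under about 1 CPM, and intervals and floors cover counting error only.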

Additional observations from a re-analysis of the deposited data

Results flagged for a closer look

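Xcr1 in Δ/DN US replicate 1 lay at 0.388 CPM, far from the other 3 libraries of its group, which lay at 0.0864 to 0.104 CPM. The gap to the nearest library took 0.942 of the range of the group, above the critical value of Dixon's test for 4 samples. It was 1 of 30 groups of 4 libraries tested over the 10 genes, and chance flags about 1 group in 20. Without this library the Xcr1 difference between genotypes was 1.92 (adjusted p = 0.083 by edgeR's quasi-likelihood test).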

How the results depend on the processing

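In the comparison of genotypes without LPS, 5 of the 10 genes were called, 3 with no filter on low counts, 2 with no library set term, and 1 to 6 when each library was left out. With LPS 1 was called, 0 with RLE scaling or no set term, 3 by DESeq2 or with library totals, and 0 to 2 when each library was left out. For LPS in Δ/+ the counts were 5 to 6, though not always of the same genes. With library totals Zbtb46 was not called in either genotype, Id2 not in Δ/+ and Xcr1 not in Δ/DN. Sirpa was then called lower in both genotypes, and Cd24a in Δ/+ too. For LPS in Δ/DN 8 were called, 5 within library set 2 or without Δ/DN 3 and 4, and 7 to 8 when each library was left out. The difference of LPS effects called 0 members throughout. Between genotypes with LPS, uncalled values turned round for Flt3 and Xcr1 with no set term (-0.20 and -0.40), within set 2 (-0.0401 and -0.0853) and without Δ/DN 3 and 4 (-0.0534 and -0.100), and for Id2 with the replicate block as a random term (-0.0165). For LPS in Δ/+, Kmo turned round to 0.0302 with RLE scaling, 0.0303 by DESeq2, 0.0321 with both Δ/DN 3 libraries left out and to 0.11 with no set term. With library totals Dpp4 (-0.13), Sirpa (-0.40) and Cd24a (-0.60) turned round in Δ/+, and Sirpa (-0.23) in Δ/DN. These values all lay above the medians of all genes under that scaling, -0.73 in Δ/+ and -0.67 in Δ/DN. Gene and median move nearly alike with scaling, so that position is not separate evidence. For the difference of LPS effects, Flt3 (-0.34) and Dpp4 (-0.16) turned round with no set term, and Flt3 within set 2 (-0.55), without both Δ/DN 3 libraries (-0.17) and without Δ/DN 3 and 4 (-0.57). Leaving out each library gave ranges across 0 for Flt3 (-0.0237 to 0.35) between genotypes without LPS, for Id2 (-0.14 to 0.0620) and Xcr1 (-0.0917 to 0.50) with LPS, for Kmo (-0.19 to 0.38) and Cd24a (-0.0681 to 0.14) with LPS in Δ/+, for Flt3 (-0.35 to 0.0418) in Δ/DN, and for Flt3 (-0.18 to 0.42) and Dpp4 (-0.14 to 0.51) in the difference of LPS effects. The cause was not tested. The replicate block changed calls of Dpp4, Zbtb46 and Sirpa, given beside those results, and no other call of the 10 genes. As a random term it called 4 genes between genotypes without LPS, 1 with LPS, and 6 and 8 for LPS in Δ/+ and Δ/DN, and as a fixed term 6 and 9. Over all genes, the count between genotypes without LPS was 2184 and ran from 174 without Δ/+ US replicate 4 to 3705 without both Δ/DN 3 libraries. Depth limits Xcr1 most, with 0 to 5 reads in each Δ/+ US library.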
